A study of Glycine max with 2 samples.

Results

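AGL62-like is a soybean protein named for AGL62 of Arabidopsis, a MADS-domain DNA-binding regulator that acts in the endosperm, the tissue that feeds the embryo. The wide peaks described here are the regions of 1000 bp or more in a list of regions enriched in its ChIP, chosen as every row of the list whose end minus its start was at least 1000 bp. That rule selected on peak width as the authors' peak caller gave it. The wide peaks were 539 of 17179 peaks, or 3.14% (95% Wilson interval 2.89 to 3.41), and 536 of them lay on the 20 chromosomes. The other 16640 peaks were under 1000 bp. The samples were 1 ChIP library, precipitated with a rabbit polyclonal antibody to an AGL62-like peptide, and 1 library of total chromatin (input). Both came from whole seeds, 1.0 to 1.5 mm long, of the cultivar Williams 82 with embryos at the globular stage, so embryo, endosperm and seed coat were crosslinked together. The series title and sample labels name AGL62-like as the target, while the design text of the series names WOX9-like. The comparison asks how the wide regions differ from the rest in place, spacing, shape and input background.

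In Arabidopsis, AGL62 is known to hold back the point at which the syncytial endosperm divides into cells, and it is needed for signalling between endosperm and seed coat after fertilisation. MADS-domain proteins bind DNA as dimers at short A/T-rich motifs called CArG boxes. In chromatin immunoprecipitation with sequencing (ChIP-seq), fragments crosslinked to the protein pile up over a bound site, and the place of the highest pile is called the summit. One short site gives a pile not much longer than the fragments on either side of it, whereas several sites in a row, or a protein spread over a stretch of chromatin, are known to give longer piles. No source used here names the genome build of the list, and the genes and DNA sequence under the wide peaks were not analysed here.

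No result below has a replicate check, because the list comes from 1 ChIP library, and no test was made. Seeds precipitated with another antibody were not analysed here. Width is read from the same comparison of ChIP with input as height, summit place and background, so differences between the width classes are given as a description. Peaks of 1 library are not replicates of a condition. The total depth of each library is unknown. The number of ChIP fragments at each summit and the background level were recovered from the fold and p-value of the peak. On the recovered scale there were 2.34 input reads per ChIP read. Wilson intervals cover counting error only, and they are too narrow where peaks cluster.

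Most wide peaks were only somewhat over the limit. Their median width was 1233 bp, the middle 50% lay between 1084.5 and 1553 bp, and the widest reached 6049 bp. Peaks under 1000 bp had a median of 381 bp, with the middle 50% between 301 and 505 bp. Of the wide peaks, 240 were under 1200 bp and 66 were 2000 bp or more. The fragment length used in the peak calling was taken as 249 bp, the shortest width listed. On this scale the wide peaks ran from 4.02 to 24.3 fragment lengths. The sample records give fragments of 100 to 500 bp for both libraries. Against the longest of these, the wide peaks would be fewer fragment lengths wide. Together they covered 0.771 Mb, which was 9.84% of the 7.83 Mb under all peaks.

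Values just inside and just outside the limit overlapped. The 3 narrowest wide peaks measured 1000, 1002 and 1003 bp, with folds of ChIP over background of 6.99, 3.59 and 8.33. The 3 widest peaks left out measured 999, 998 and 997 bp, with folds of 5.44, 5.76 and 9.57.

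Wide peaks were taller than the rest, which is partly built in, because a higher pile stays above the calling threshold over a longer stretch. The median number of fragments at the summit was 38 in wide peaks (range 18 to 228) and 23 in peaks under 1000 bp (range 12 to 192). The median fold was 8.91 in wide peaks, with the middle 50% between 7.02 and 11.8. Peaks under 1000 bp had a median fold of 5.36, with the middle 50% between 4.51 and 6.83. A fold of 10 or more was found in 196 of the 539 wide peaks (36.4%) and in 1045 of the 16640 peaks under 1000 bp (6.28%), against 7.22% of all listed peaks. A fold of 20 or more was found in 19 wide peaks and 13 peaks under 1000 bp, against 0.186% of all peaks. Since the choice by width uses the same pile, these counts are a description only.

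Wide peaks included both low and high summits. Of the wide peaks, 44 (8.16%) had under 25 fragments at the summit and 26 (4.82%) had 80 or more. The share of peaks that were wide was 1.48% among those with 20 to 29 fragments (95% Wilson interval 1.23 to 1.77), 6.26% with 30 to 39 (5.42 to 7.23), 9.77% with 40 to 49 (8.12 to 11.7), 19.2% with 50 to 79 (16.3 to 22.5) and 48.1% with 80 or more (35.4 to 61.1). Of the peaks with 80 or more fragments, 26 were wide and 28 were under 1000 bp. Across peaks, width and fragment number had a Spearman's rho of 0.14 within the 539 wide peaks and 0.61 within the 16640 peaks under 1000 bp, where all points share 1 pair of libraries and the peak is cut at the same threshold. Among the 66 peaks of 2000 bp or more, 7 had under 30 fragments and 11 had 80 or more.

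**Figure D1:**
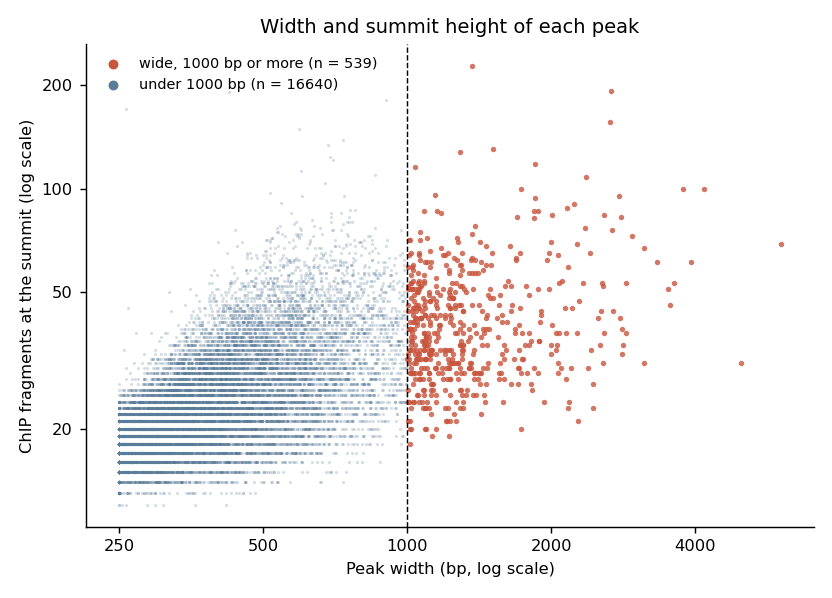
Each point is 1 peak, placed by its width in bp (log scale) and the number of ChIP fragments at its summit (log scale). Wide peaks (red, n = 539) lie right of the dashed line at 1000 bp and have a median of 38 fragments, against 23 in peaks under 1000 bp (blue, n = 16640).

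The 5 widest peaks differed in height and in the place of the summit. The widest spanned 6957311 to 6963359 of chromosome 6, with 69 fragments at the summit, a fold of 16.7 and its summit at 10.4% of its width, so that 5422 bp of called region lay on one side and 627 bp on the other. The range of this fold was 9.85 to 23.5. For it, the fragments and the input reads were both taken to their 95% exact Poisson bounds. The background level was not taken below a genome-wide floor of 2.76 fragments, so some upper ends rest on that floor. The ranges below are of the same kind. The next spanned 52815608 to 52820588 of chromosome 1 (4981 bp) and was low, with 31 fragments and a fold of 8.03 (range 3.08 to 11.96), and its summit lay at 95.7% of the width. These 2 peaks had their highest point close to opposite edges.

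The other three of the 5 widest were 3.8 to 4.2 kb long. One spanned 47440157 to 47444322 of chromosome 2 (4166 bp). It had 100 fragments and a fold of 20.9 (range 9.93 to 32.6), with the summit at 41.3% of the width. On chromosome 11, the span of 5112972 to 5116892 (3921 bp) held 61 fragments at a summit at 20.4% of the width, and a fold of 14.5 (range 10.2 to 20.3). On chromosome 14, the span of 1170650 to 1174424 (3775 bp) held 100 fragments at a summit at 31.5% of the width, and a fold of 16.5 (range 8.28 to 32.6). In 1 of the 5 widest peaks the summit was in the central band of 40% to 60% of the width.

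The wide peaks of highest fold were not the widest. The highest spanned 57421351 to 57422716 of chromosome 18, over 1366 bp. It had 228 fragments and a fold of 51.9 (range 25.9 to 69.3), and lay 58 bp from the edge of its neighbour. Chromosome 8 held 2 of them. The peak spanning 47621062 to 47623730 reached 48.5-fold (range 38.4 to 59.3) over 2669 bp. The peak spanning 14199842 to 14201129 reached 32.4-fold (range 15.1 to 40.7) over 1288 bp and had its summit at the midpoint. Another was on chromosome 11, where 10440695 to 10443346 (2652 bp) reached 36.6-fold (range 23.5 to 48.8). The fifth spanned 33241299 to 33243660 of chromosome 3 (2362 bp), reached 28.98-fold (range 23.8 to 34.9) and stood alone, with 177.5 kb to the nearest peak. Their ranges overlap, except that the range on chromosome 3 lies below the range of the first peak on chromosome 8.

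At the other end, the 3 wide peaks of lowest fold had 22 to 24 fragments over a background of 5.97 fragments that rested on 14 input reads each. The lowest fold was 3.30 (range 1.34 to 8.04), over 25905538 to 25906960 of chromosome 16. The next was 3.44 (range 1.41 to 8.32), over 42934521 to 42935735 of chromosome 9. The third was 3.58 (range 1.49 to 8.60), over 5714215 to 5715289 of chromosome 11. These folds are too close to be ordered at this depth.

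A smaller share of summits lay at the centre in wide peaks than in the other peaks. A summit between 40% and 60% of the width was found in 149 of 539 wide peaks (27.6%, 95% Wilson interval 24.0 to 31.6) and in 8979 of 16640 peaks under 1000 bp (54.0%, 53.2 to 54.7). A summit in the first or last 25% of the width was found in 167 wide peaks (31.0%, 27.2 to 35.01) and in 1425 peaks under 1000 bp (8.56%, 8.15 to 8.998). By length alone, the central band takes up 20% of a peak and the 2 outer bands 50%, but summits need not be spread evenly by length. The central share also changed with width below the limit, from 74.2% at 400 to 499 bp to 27.3% at 600 to 699 bp. A low central share is therefore not particular to peaks of 1000 bp or more. The central share was lower in wide peaks on each of the 20 chromosomes, by 14.6 to 41.3 percentage points.

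Both sides of the wide peaks held similar numbers of summits. The summit was in the first 25% of the width in 85 wide peaks (15.8%) and in the last 25% in 82 (15.2%), counted along the chromosome. In steps of 10% of the width, the share of wide peaks stayed between 12.1% and 15.6% in each step from 20% to 80%, whereas peaks under 1000 bp climbed to 27.5% in the step from 40% to 50%. The outermost steps were nearly empty, with 2 wide peaks in each.

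**Figure D2:**
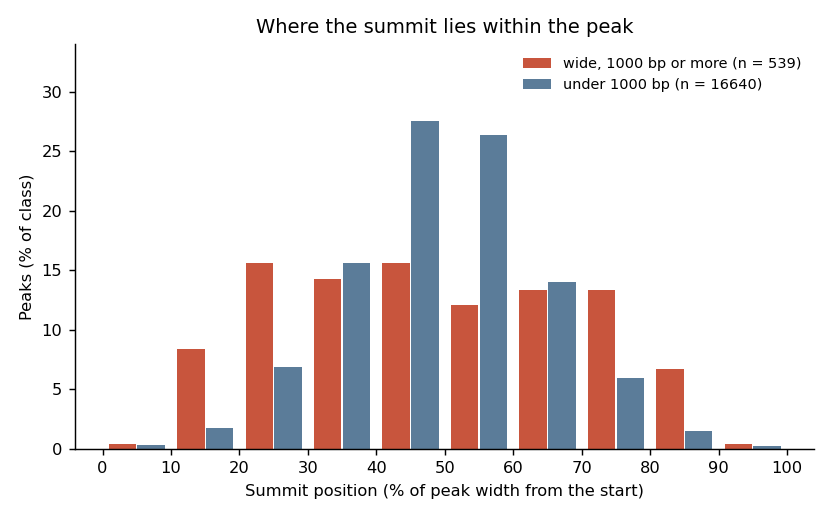
Bars give the percent of peaks whose summit falls in each 10% step of the peak's width, for wide peaks (red, left) and peaks under 1000 bp (blue, right). The wide peaks are spread almost evenly from 20% to 80% of the width, while the other peaks gather between 40% and 60%.

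From 20 fragments up, the central share was also lower in wide peaks of like height. With 30 to 39 fragments at the summit, 21.5% of 172 wide peaks and 64.8% of 2575 peaks under 1000 bp had a central summit. With 50 to 79 fragments the shares were 34.7% of 121 wide peaks and 66.1% of 508 peaks under 1000 bp. Among wide peaks with 80 or more fragments, 42.3% of 26 had a central summit, against 64.3% of 28 such peaks under 1000 bp. With 12 to 19 fragments the order was opposite, at 66.7% of 3 wide peaks and 40.2% of 5036 peaks under 1000 bp.

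The limit of 1000 bp did not mark a step in this pattern. By width class, the share of central summits was 39.98% at 249 bp, 74.2% at 400 to 499 bp, 48.7% at 500 to 599 bp and 27.3% at 600 to 699 bp. It was 24.8% at 900 to 999 bp and 29.6% at 1000 to 1199 bp, and from 21.4% to 35.1% in the wider classes. The fall thus came between 400 and 700 bp, where widths pass 2 fragment lengths (498 bp). Off-centre summits were fewest at intermediate widths, with 20.4% at 249 bp, 13.4% at 250 to 299 bp, 3.15% at 300 to 399 bp, 19.1% at 800 to 899 bp, 30.2% at 900 to 999 bp and 26.7% at 1000 to 1199 bp.

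Both flanks were longer in wide peaks, the farther one by more. This is largely built in, because the flanks add up to the width used for the choice. All 539 wide peaks had the farther edge over 498 bp from the summit, which the limit itself ensures. The summit lay a median of 408 bp from the nearer edge in wide peaks and 157 bp in peaks under 1000 bp. The farther edge was at a median of 868 bp in wide peaks and 222 bp in peaks under 1000 bp. In 433 wide peaks (80.3%) even the nearer edge was over 249 bp from the summit, against 1186 peaks under 1000 bp (7.13%). A peak of under 498 bp cannot reach this, so these shares also follow in part from the choice. The median of 408 bp was still below the 500 bp given for the longest fragments. By class, the median distance to the nearer edge was 217 bp at widths of 500 to 599 bp, 278.5 bp at 900 to 999 bp, 347.5 bp at 1000 to 1199 bp and 830 bp at 2000 to 2999 bp.

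**Figure D3:**
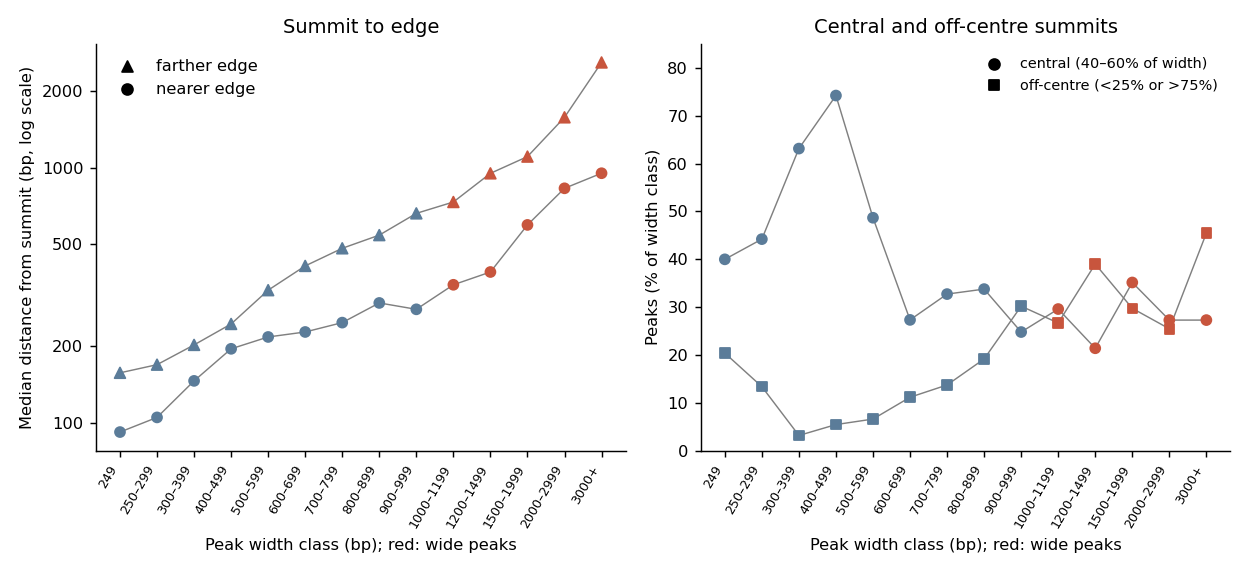
Left, median distance in bp (log scale) from the summit to the farther edge (triangles) and the nearer edge (circles) by width class; right, percent of peaks in each class with a central (circles) or off-centre (squares) summit. Wide classes are red and classes under 1000 bp blue; the central share falls between the classes of 400 to 499 bp (74.2%) and 600 to 699 bp (27.3%).

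The 3 wide-peak summits nearest the start of their peak and the 3 nearest the end lay in peaks of 1081 to 6049 bp with 25 to 69 fragments. On chromosome 17, the peak spanning 38090646 to 38091726 had its summit 80 bp from its start, at 7.40% of the width, with 25 fragments. On chromosome 2, the summit of the peak spanning 9306706 to 9308904 was at 7.91% of the width, with 30 fragments and 2025 bp of called region on its other side. At the far end, the summit was at 93.98% of the width over 49623276 to 49626399 of chromosome 4 (31 fragments). It was at 88.96% over 38807276 to 38808579 of chromosome 19 (38 fragments). The remaining peak at each end is one of the widest peaks on chromosomes 6 and 1 given above.

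Wide peaks had a neighbour closer by, measured from edge to edge. This is partly built in, because the edges of a longer peak reach farther from its summit. The median gap to the nearest peak was 2131 bp in wide peaks (middle 50% between 580 and 10315 bp) and 4516 bp in peaks under 1000 bp (1147 to 15851 bp). A gap of 2 kb or less was found in 265 wide peaks (49.2%, 95% Wilson interval 45.0 to 53.4) and in 5836 peaks under 1000 bp (35.1%, 34.4 to 35.8). A gap under 1 fragment length was found in 74 wide peaks (13.7%) and in 1054 peaks under 1000 bp (6.33%). The smallest gap was 52 bp in both classes. The limit of 1000 bp did not mark a step in the gaps. In peaks of 900 to 999 bp the median gap was 1963.5 bp, and 50% had a gap of 2 kb or less. In peaks of 1000 to 1199 bp the values were 2979 bp and 43.3%.

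From summit to summit the difference was smaller. Both measures depend on width, in opposite directions. A long peak shortens the gap between edges, while it keeps other summits away from its own. Another summit lay within 2 kb of 33.4% of wide summits (29.5 to 37.5) and of 30.2% of summits of peaks under 1000 bp (29.5 to 30.9). Within 10 kb the shares were 73.1% (69.2 to 76.7) of wide peaks and 65.1% (64.4 to 65.8) of peaks under 1000 bp. By width class, the share within 10 kb was 78.1% at 800 to 899 bp, 78.4% at 900 to 999 bp and 74.2% at 1000 to 1199 bp. It was 61.8% at 2000 to 2999 bp, so a high share was not particular to wide peaks. The share within 10 kb was higher in wide peaks than in all peaks under 1000 bp on 15 of 20 chromosomes.

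At like height, the direction of this difference was not constant. With 30 to 39 fragments, 76.7% of wide peaks and 67.0% of peaks under 1000 bp had a summit within 10 kb, whereas with 40 to 49 fragments the shares were 67.3% of 104 wide peaks and 72.0% of 961 peaks under 1000 bp. With 50 to 79 fragments they were 71.1% of wide peaks and 73.6% of peaks under 1000 bp. Gaps of 2 kb or less were more frequent in wide peaks in each of these classes, at 51.7%, 40.4% and 44.6% of wide peaks, against 35.6%, 38.1% and 38.2% of peaks under 1000 bp. With 80 or more fragments the order was opposite, at 53.8% of 26 wide peaks and 64.3% of 28 peaks under 1000 bp.

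The nearest peak was mostly lower than the wide peak, as the height of wide peaks would give. Within 10 kb, the nearest peak had more fragments than the wide peak itself in 59 of 402 cases (14.7%), and in 5360 of 10948 cases (48.96%) around peaks under 1000 bp. Its median was 23 fragments beside wide peaks and 23 beside peaks under 1000 bp. The nearest peak within 10 kb was itself wide for 30 of 402 wide peaks (7.46%, 5.28 to 10.5) and for 399 of 10948 peaks under 1000 bp (3.64%, 3.31 to 4.01). No lean of off-centre summits toward or away from the neighbour was detectable. With a gap of 2 kb or less, it lay on the neighbour's side in 42 of 90 wide peaks (46.7%, 36.7 to 56.9) and in 258 of 518 peaks under 1000 bp (49.8%, 45.5 to 54.1).

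Few wide peaks had another wide peak close by, in a list where 3.14% of all peaks were wide. As given above, the nearest peak within 10 kb was wide more often beside wide peaks (7.46%) than beside the others (3.64%). Among themselves, adjacent wide summits were a median of 545.3 kb apart, 14 wide peaks (2.597%) had another wide summit within 2 kb, and 55 (10.2%) had one within 10 kb. The closest pair spanned 5864745 to 5866018 (1274 bp) and 5866247 to 5867548 (1302 bp) of chromosome 9. Their edges were 228 bp apart and their summits 714 bp, with 31 and 32 fragments. The summit of the first lay at 83.4% of its width and that of the second at 21.0%, so both faced the gap. Summits 714 bp apart in peaks of these widths must do so, and the pair was chosen for its closeness.

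**Figure D4:**
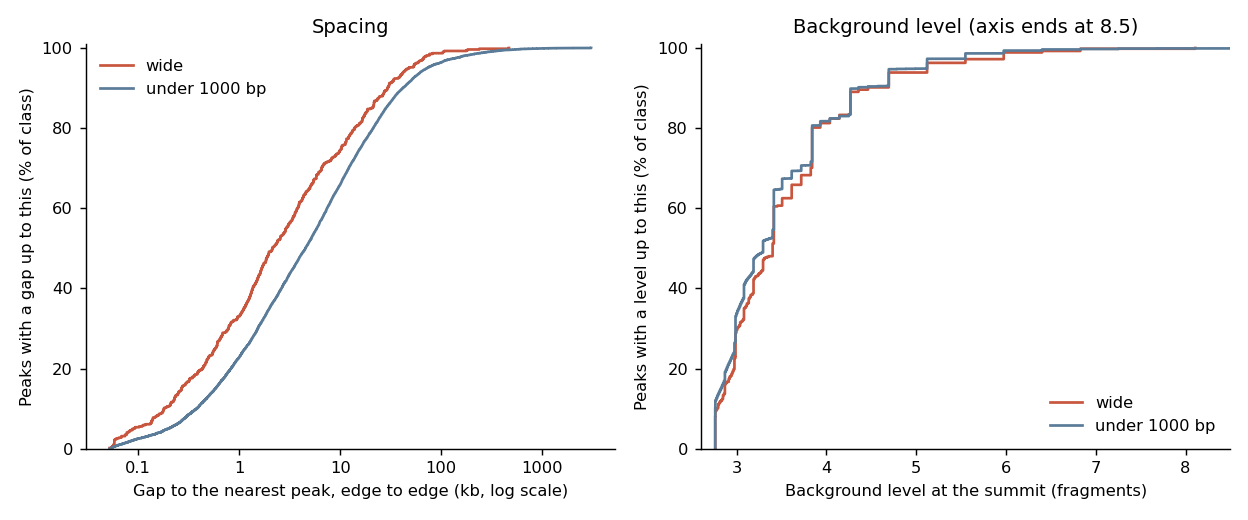
Left, cumulative percent of peaks by the gap in kb (log scale) to the nearest peak; right, cumulative percent by background level in fragments, for wide peaks (red) and peaks under 1000 bp (blue). The median gap is 2131 bp in wide peaks and 4516 bp in the others, while the curves of background level nearly coincide.

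The background level under wide peaks was close to that under the rest. It is the input-derived number of fragments with which the summit is compared, and it had a median of 3.40 in wide peaks (middle 50% between 2.99 and 3.84) and 3.29 in peaks under 1000 bp (2.98 to 3.84). It cannot fall below a genome-wide floor of 2.76 fragments. The level was at this floor in 44 wide peaks (8.16%, 95% Wilson interval 6.14 to 10.8) and in 1713 peaks under 1000 bp (10.3%, 9.84 to 10.8). The level came from a window of 249 bp in 40.4% of wide peaks and 40.9% of peaks under 1000 bp, where it rested on a median of 9 input reads in both. The window of 1 kb set it in 32.5% of wide peaks (28.7 to 36.5) and 28.5% of peaks under 1000 bp (27.8 to 29.1), and that of 10 kb in 18.9% of wide peaks and 20.4% of the others.

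At like height the median background level was equal in both width classes or lower in wide peaks, unlike over the whole list. With 30 to 39 fragments it was 3.19 in wide peaks and 3.41 in peaks under 1000 bp, and with 12 to 19 fragments it was 2.91 in 3 wide peaks and 3.08 in 5036 peaks under 1000 bp. It was 3.40 in both with 20 to 29 fragments, and 3.41 in both with 40 to 49, 50 to 79 and 80 or more. Across the 539 wide peaks, width and level had a Spearman's rho of 0.027, over points that share 1 input library.

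Very high background was not met in wide peaks. A level of 3 times the floor or more was found in 0 of 539 wide peaks, where a count of 0 allows up to 3 counts, or 0.557% (95% Wilson upper bound 0.708%), and in 18 of 16640 peaks under 1000 bp (0.108%), so a difference was not detectable at this number of peaks. The widths of these 18 peaks had a median of 404.5 bp and a maximum of 776 bp. A level of 2 times the floor or more was found in 20 wide peaks (3.71%, 2.41 to 5.66) and 446 peaks under 1000 bp (2.68%, 2.45 to 2.94).

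The highest level under a wide peak was 8.11 fragments, from 19 input reads, against a highest of 131 under peaks of less than 1000 bp. It belonged to a peak over 4364246 to 4365449 of chromosome 15, with 60 fragments and a fold of 6.70 (range 3.42 to 13.3). The next 2 had 6.83 fragments from 16 input reads. The one over 15903114 to 15904262 of chromosome 17 had a fold of 7.15 (range 3.51 to 14.8). The one over 40868699 to 40870156 of chromosome 5 reached 5.49-fold (range 2.59 to 11.8). One more wide peak had the same level and a lower fold.

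Along the chromosomes, wide peaks lay where other peaks lay. Soybean chromosomes are known for gene-rich arms and a large repeat-rich centre. With the end of the last peak taken as the length of a chromosome, 441 of 536 wide summits (82.3%, 95% Wilson interval 78.8 to 85.3) were in the outer 25% at either end, and 13281 of 16547 summits of peaks under 1000 bp (80.3%, 79.6 to 80.9). The outermost 10% at both ends held 40.9% of wide summits and 40.7% of the others. The central 20% held 21 wide summits (3.92%, 2.58 to 5.92) and 858 of the others (5.19%, 4.86 to 5.53). These intervals overlap.

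The share in the ends was higher in wide peaks on 14 chromosomes and lower on 6. The largest fall was on chromosome 5, where 68.4% of 38 wide summits were in the ends, against 87.0% of the peaks under 1000 bp. On chromosome 17 the shares were 64.7% of 34 wide summits and 77.6% of the others. On chromosome 6 they were 89.7% of 29 wide summits and 78.4% of the others.

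Every chromosome held wide peaks, from 16 on chromosome 16 to 38 on chromosome 5. As a share of a chromosome's own peaks they ran from 2.27% on chromosome 12 (95% Wilson interval 1.42 to 3.60) to 4.53% on chromosome 5 (3.32 to 6.16). These 2 intervals overlap. Chromosome 5 was the only one whose interval lay above the 3.14% of the whole list, and none lay below it. Of 20 such intervals, about 1 would miss a common share by counting error alone, and chromosome 5 was picked as the highest. Its widest peak, from 11306383 to 11309508 (3126 bp), had a fold of 18.1 (range 14.1 to 22.9) and no other peak within 469.8 kb. The widest on chromosome 12, from 6214009 to 6216510 (2502 bp), had a fold of 11.2 (range 7.43 to 15.4) and a neighbour 209 bp away. On scaffolds, 3 of 96 peaks were wide, 2 on the scaffold numbered 21 and 1 on that numbered 28.

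**Figure D5:**
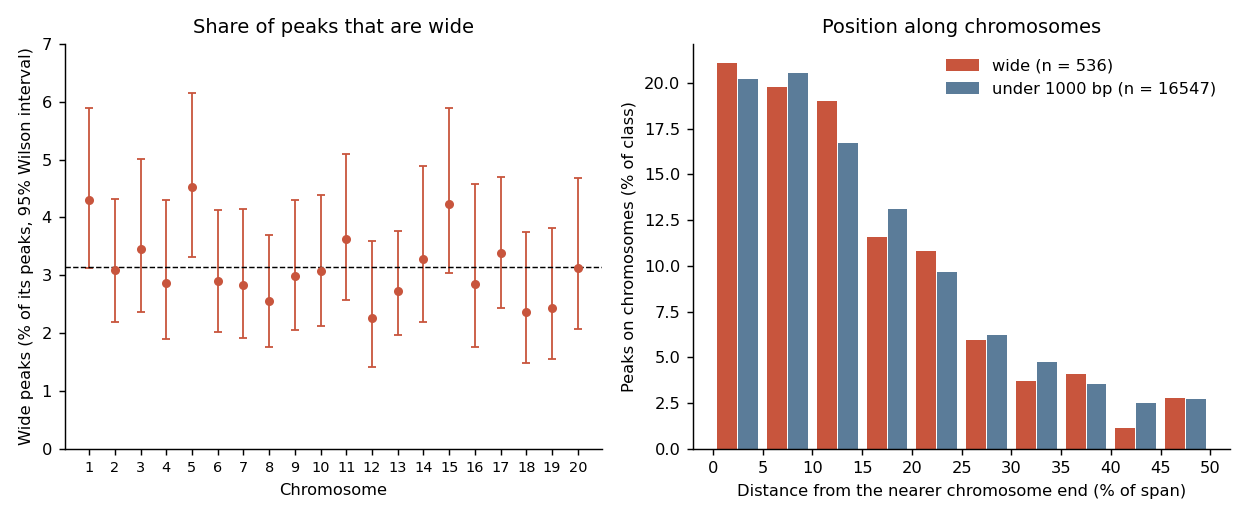
Left, percent of each chromosome's peaks that are wide, with 95% Wilson intervals and a dashed line at the 3.14% of the whole list; right, percent of wide peaks (red, n = 536) and of peaks under 1000 bp (blue, n = 16547) by distance of the summit from the nearer chromosome end, in % of the chromosome's span. Both classes decline alike toward the middle.

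No wide peak was listed over most of chromosome 19. The first of its 18 wide summits was at 36982076, at 73.1% of its span. Only 216 of the chromosome's 738 peaks lay before that point, none of them wide by the choice of the point. They had a median fold of 5.28 and reached 970 bp. Over the whole chromosome, 2.44% of peaks were wide. In the first 25% of the chromosome, 0 of 137 peaks were wide, and 3 counts of 137, the limit that a count of 0 allows, would be 2.19%. The stretch of 37.0 Mb was the longest without a wide peak on any chromosome, and chromosome 10 had the next, 33.0 Mb between summits at 4622449 and 37653453. The stretch on chromosome 19 was singled out after its values were seen, so no depletion is read from it.

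Of 955 windows of 1 Mb, 313 held a wide summit. The window on chromosome 1 from 52000001 to 53000000 held the most, 7 wide peaks among 82 peaks, which was also the highest number of peaks of any width in a window. Next came 49000001 to 50000000 of chromosome 10 with 6 wide peaks among 70, and 1000001 to 2000000 of chromosome 15 with 6 among 47. The window on chromosome 11 from 5000001 to 6000000 held 5 among 56. Several windows held 4, among them that on chromosome 18 from 57000001 to 58000000, with 4 of 30 peaks wide. That window is named for the peak of highest fold, the others for their counts, and all are a description.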

How the data were processed

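ChIP and input libraries from 1 replicate each were grouped by the sample labels. The submitters' processing notes name Bowtie 0.12.7 and SAMtools 0.1.18, and MACS2 without a version. No source used here gives the settings or the genome build. The deposited fold per peak is a ratio of ChIP to background at the summit. The deposited p-values and q-values are given as −log10, and the deposited score is the −log10 q times 10, rounded down, and was not used further. Width, summit position and coordinates (given 1-based) were read from the list by its layout.

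Fragments and background levels were recovered from fold and p-value, as MACS2 is known to compute them: the fold is pileup plus 1 over level plus 1, and the p-value the upper Poisson tail. A whole number of fragments met both for 17179 of 17179 peaks, missing the −log10 p by 8.93e-05 or less (tolerance 0.0001), against 0.00046 or more for the next best number. Levels fell on the floor or on whole input reads in a window of 249 bp, 1 kb or 10 kb for 100% of peaks. On simulated data, fragments were recovered in 100% of 1000 peaks and the window in 97.5%; levels set by 10 kb were given to 1 kb in the rest, since read numbers in steps of 10 match both. In fold ranges, a level at the floor was held fixed, and no other level was taken below the floor.

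Named peaks were the 5 widest, the 5 of highest and 3 of lowest fold, the 3 with summits nearest each edge, the 3 of highest level, the closest pair, the 3 on either side of the limit, and the widest on the chromosomes with the highest and lowest share. The limit, members and measures were chosen with earlier results of these data known. Values were computed in Python 3.11.15 with pandas 2.3.3, numpy 2.4.6 and scipy 1.17.1, and plotted with matplotlib 3.10.9.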

Additional observations from a re-analysis of the deposited data

How the results depend on the processing

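A value was taken as moved where it left the 95% binomial interval of the reported one, or, for the number of peaks, where it changed by over 1.5 times. The limit sets the number: 1158 peaks were 800 bp or more, 140 were 1500 bp or more and 66 were 2000 bp or more. The median fold was 8.36 at 800 bp, 9.49 at 1500 bp and 10.7 at 2000 bp. At 2000 bp, 86.4% of wide summits were in the outer 25% of chromosomes, and the median background level was 3.28, just under the 3.29 of narrower peaks. The median level of wide peaks was equal to or below that of narrower peaks in 5 of its 11 alternatives. Outer parts of 15% and 35% held 59.9% and 92.0% of wide summits, by construction.

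The share with a summit within 10 kb was 65.7% at 1500 bp, and at 2000 bp it was 60.6%, below the 65.3% of narrower peaks. Among peaks with a −log10 q of 10 or more it was 51.3%, against 45.5% of narrower peaks, since fewer peaks were left. It was 33.4% within 2 kb and 84.6% within 20 kb. The share of central summits was 45.3% for a band from 33.3% to 66.7% of the width, against 76.0% of peaks under 1000 bp. It stayed below that of the narrower peaks in all 13 of its alternatives, but these do not count equally. Among them was a fixed distance from the midpoint, which the shortest peaks meet by length alone, so its order is built in. Leaving out scaffolds or peaks of very high background removed few or no wide peaks, which nearly repeats the reported result. The class of fewest fragments, where the order was opposite, was not among the alternatives.

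Classes of fragment number were chosen after seeing the data. In them, a summit within 10 kb was found for 76.7% of wide peaks at 30 to 39 fragments and 67.3% at 40 to 49. A central summit was found in 21.5% at 30 to 39, 23.1% at 40 to 49 and 34.7% at 50 to 79, and the median level was 3.19 at 30 to 39. Leaving out scaffolds, chromosome 13 or peaks at 3 times the floor or more moved none of the 6 results. No paired analysis was possible because ChIP and input are 1 library each. Depth limits the low wide peaks most, whose folds rest on as few as 18 fragments.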
